A study of Mus musculus with 60 samples.

Results

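The genes described here are 10 genes by which ovarian granulosa cells, and the cumulus cells derived from them, are commonly recognised: Cyp11a1, Star, Inha, Inhba, Fshr, Amh, Foxl2, Has2, Tnfaip6 and Ptx3. They were chosen by name, as the rows whose Ensembl identifier belongs to these symbols, and all 10 are among the 27238 genes measured. The values come from RNA-seq of single mouse embryos and of the cells that gave them their nuclei, in 60 libraries of 20 groups with 3 libraries each. In vivo embryos were compared with embryos made by nuclear transfer, in which the nucleus of a somatic cell is placed in an enucleated oocyte, and the cumulus cell is one of the 2 kinds of donor cell. The comparisons below follow the transcripts of the cumulus cell before and after that transfer.

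All groups were on the BDF1 background, the F1 of a C57BL/6 female and a DBA2 male. In vivo embryos came from C57BL/6 females mated with DBA2 males. NTC embryos received the nucleus of a cumulus cell (CC) and NTM embryos that of a mouse embryonic fibroblast (MEF), each in the cytoplasm of an oocyte of superovulated BDF1 females. Both kinds of NT embryo were activated with strontium chloride in the presence of cytochalasin B, treated with the histone deacetylase inhibitor Scriptaid and cultured in vitro. NT embryos thus differed from in vivo embryos in the strain of the oocyte donor, treatment and culture as well as in the nucleus, and these cannot be told apart here. Each embryo type was sampled with 1, 2, 4 or 8 cells, as a morula and as a blastula (the labels' word for the blastocyst), and embryos were picked by their morphology. CCs were freed from cumulus-oocyte complexes with hyaluronidase after gonadotropin treatment of the female. MEFs were passaged fetal cells that had been starved of serum. Neither the number of cells in a donor library nor a sort for CCs is given in the sources used here.

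In the ovarian follicle, granulosa cells surround the oocyte, and those next to it become cumulus cells. Follicle-stimulating hormone acts on them through its receptor Fshr. They make steroids, for which Star carries cholesterol into the mitochondrion and Cyp11a1 cleaves its side chain in the first step of the pathway. They also secrete inhibin, a dimer of the alpha chain Inha and a beta chain such as Inhba, while a pair of beta chains forms activin. Amh, the anti-Müllerian hormone, marks granulosa cells of growing follicles, and the forkhead factor Foxl2 maintains their identity. Before ovulation the cumulus expands in a matrix of hyaluronan that Has2 synthesises and that Tnfaip6 and the pentraxin Ptx3 crosslink and stabilise.

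Sequence upstream of the transcription start is shown for 3 members that differed in how they divided the donor cells, Cyp11a1 (high in CCs), Tnfaip6 (high in both) and Ptx3 (high in MEFs). The sequences are from RefSeq on build GRCm38.p6, all on the plus strand, and capitals mark a match to AGGTCA (the core site of nuclear receptors) or to TGANTCA (the AP-1 motif), each searched on both strands. For Cyp11a1 the 30 bases around this site are given, at chr9:58014912-58014941, which lie before the proximal RefSeq start and within an exon of GENCODE M21.
Cyp11a1: gaggaaggggggAGGTCAccgctccatcag
Tnfaip6, chr2:52037863-52038008: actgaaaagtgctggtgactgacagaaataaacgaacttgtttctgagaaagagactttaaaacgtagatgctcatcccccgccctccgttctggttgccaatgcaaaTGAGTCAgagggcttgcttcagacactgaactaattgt
Ptx3, chr3:66219637-66219886: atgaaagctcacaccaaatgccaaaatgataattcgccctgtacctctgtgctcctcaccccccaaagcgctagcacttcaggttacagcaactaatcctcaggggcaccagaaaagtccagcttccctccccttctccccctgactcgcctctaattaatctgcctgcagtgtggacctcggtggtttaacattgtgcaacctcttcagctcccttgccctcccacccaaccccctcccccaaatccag
In the 250 bases before a RefSeq start, AGGTCA was found once each for Inha, Tnfaip6 and the proximal start of Cyp11a1, and in 14.0% of 32851 mouse promoter windows. The site of Tnfaip6 lies outside the stretch printed. TGANTCA was found for Tnfaip6 only among the members with an entry, and in 6.75% of the windows. Ptx3, Inhba, Fshr, Foxl2 and the distal start of Cyp11a1 held neither. These are matches of letters, and binding was not measured.

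The expression values are RPKM, reads per exon length of a gene and per reads of its library, and differences were tested with limma on log2(RPKM + 1), a scale that understates the change of low genes. A gene was called up- or down-regulated at an adjusted p (Benjamini-Hochberg over all genes tested) under 0.05 and a log2 difference of at least 1 in size. Genes with a mean under 0.5 RPKM in the libraries compared were not tested. The library size behind the RPKM values, recovered from the steps between them, was 5294167 to 26281508 reads in embryos (median 14718210). In donor cells it was 31558140 to 47830132 reads. A value of 0 leaves up to 3 reads open by counting alone, and losses before amplification are not covered by that limit.

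CCs and MEFs were compared first, which shows how far the genes set the cumulus donor apart. Cyp11a1, Inha and Star were up-regulated in CCs. Ptx3 was up-regulated in MEFs, and the other 4 genes tested did not pass. Thus 4 of the 8 members tested were called (limma), 3 higher and 1 lower in CCs, where 6.29% of all 11978 genes tested were called, 2.3% higher and 3.99% lower. The median log2 difference was 2.11 for the 8 members and -0.19 for all genes tested. Cyp11a1, Star, Fshr and Amh had MEF means of 0.208, 0.0485, 0.0038 and 0.0102 RPKM. They passed the filter of 0.5 RPKM through the CC libraries alone, which fixed the sign of their difference. Other genes could also pass through the MEF side, so neither the median nor the share of calls compares like with like. All 3 CC libraries lay above all 3 MEF libraries for 9.68% of all genes tested, and the reverse held for 14.8%. Foxl2 and Has2 were too low in both cells to be tested.

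**Figure D1:**
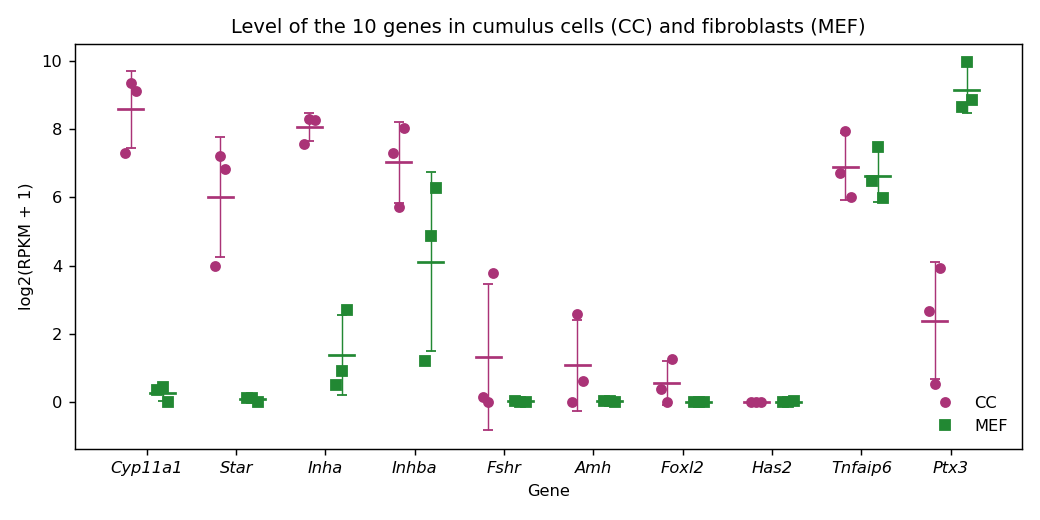
Level of each gene in the 3 CC libraries (circles) and the 3 MEF libraries (squares), as log2(RPKM + 1), with the mean (bar) and 1 SD (whiskers). Cyp11a1, Star and Inha are separated with CCs above, Ptx3 with MEFs above, and both cells overlap for Inhba and Tnfaip6.

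Among the steroid genes, Cyp11a1 reached 157, 662 and 557 RPKM in CC replicates 1, 2 and 3, and 0.277, 0.348 and 0 RPKM in the MEF libraries. The groups were far apart, with the lowest CC library at 28128 reads and the highest MEF library at 62. On the log2 scale the difference was 8.34 (SE 0.63, adjusted p = 0.00014, limma). Star had 14.7, 147 and 113 RPKM in CCs and 0.0681, 0.0774 and 0 RPKM in MEFs. CC replicate 1 was the lowest of the 3 CC libraries for both genes, and it fell further below the other CC libraries for Star. The log2 difference of Star was 5.94 (SE 0.90, adjusted p = 0.0053, limma).

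Of the hormone subunits, Inha had 191, 319 and 310 RPKM in CCs, with the smallest spread relative to the mean among the members that were high there (273 ± 71.5, SD, n = 3). In MEFs it had 0.402, 0.878 and 5.46 RPKM, so the highest MEF library was well below the lowest CC library. The log2 difference was 6.70 (SE 0.64, adjusted p = 0.00053, limma). Inhba divided the cells less clearly, with 158, 52.2 and 262 RPKM in CCs and 1.29, 28.3 and 76.3 RPKM in MEFs. The MEF libraries spread over a wider fold range than the CC libraries, and MEF replicate 3 exceeded CC replicate 2. The log2 difference of 2.92 (SE 1.19) did not pass (adjusted p = 0.24, limma). Amh was found in CC replicates 2 and 3 (4.96 and 0.533 RPKM) and had no read in CC replicate 1. Its log2 difference of 1.05 (SE 0.79) had an adjusted p of 0.55 (limma).

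The receptor and the transcription factor were low and uneven. Fshr was found at 12.8 RPKM (837 reads) in CC replicate 3, at 0.0901 RPKM (7 reads) in CC replicate 1 and not in CC replicate 2. Its log2 difference was 1.30 (SE 1.04, adjusted p = 0.57, limma), which a single CC library carried. Foxl2 had 13, 0 and 54 reads in the CC libraries and none in any MEF library. CC replicate 3, the highest library for Fshr and Foxl2, was also the highest for the summed markers of leukocytes (11.9 RPKM over 9 genes, against 0.0678 and 0.130) and of endothelium (21.1 RPKM over 5 genes, against 0.602 and 13.2). The part of these cells in Fshr and Foxl2 was not tested. The oviduct epithelium markers (5 genes) were at 0 in all CC libraries. As the number of cells in a donor library is not given, fewer cells of a type and less RNA per cell cannot be told apart.

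The genes of the expanded matrix did not mark CCs in these data, which cover a single time after gonadotropin treatment. Has2 had no read in any of the 3 CC libraries, and 1 read in 1 MEF library. Tnfaip6 was abundant in both cells, with 105, 248 and 63.7 RPKM in CCs and 88.2, 178 and 62.1 RPKM in MEFs. The log2 difference was 0.25 (SE 0.57, adjusted p = 0.83, limma), and its sign turned when single libraries were left out (-0.28 without CC replicate 2 and -0.08 without MEF replicate 3). Ptx3 had 5.38, 0.436 and 14.3 RPKM in CCs against 406, 1003 and 467 RPKM in MEFs. Every MEF library was above every CC library, and the log2 difference of -6.79 (SE 0.81) passed (adjusted p = 0.0017, limma).

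The name of cumulus and granulosa identity genes therefore held in these libraries for Cyp11a1, Star and Inha by the test. For Cyp11a1 and Star the filter on low values had fixed the sign of the difference. The calls of Star and Ptx3 were lost when genes of low values were not filtered out. Amh, Foxl2 and Fshr were found in CCs with at most 1 read in any MEF library, but not in every CC library. Has2 was not detected in CCs at this depth, where 3 reads equal 0.0189 to 0.0224 RPKM, and Tnfaip6 and Ptx3 did not mark CCs against MEFs.

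The cells were also checked with 10 lists of related genes and of other cell types. Of the granulosa transcription factors and identity genes, 8 of 15 tested were up-regulated in CCs and 1 was down-regulated (Kitl, -3.96). The median log2 difference of this list was 3.14. Serpine2, a protease inhibitor, had 701 ± 45.5 RPKM in CCs and 14.6 ± 10.4 RPKM in MEFs (SD, n = 3), and Gja1, the connexin of granulosa gap junctions, 455 ± 260 and 33.7 ± 9.05 RPKM. The zinc finger factor Gata4 had 66.3 ± 13.8 RPKM in CCs and 0.0216 ± 0.0189 RPKM in MEFs. Genes at or near 0 in MEFs, such as Gata4, passed the filter on low values through the CC libraries alone. That fixed the sign of their difference, and the reverse held for genes at or near 0 in CCs. The counts and medians of all lists compared between CCs and MEFs are limited by this. Of the steroidogenesis list, 4 of 11 tested were up-regulated in CCs and none was down-regulated (median 1.79). The ferredoxin Fdx1, which hands electrons to Cyp11a1, rose by 6.60 on the log2 scale (3536 ± 1396 RPKM in CCs), its reductase Fdxr by 5.27 and the lipoprotein receptor Scarb1 by 4.46.

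The lists that surround the low or divided members gave 1 call each, at a background of 6.29% of all genes called. Of the activin, inhibin and AMH partners, none of 12 was up-regulated in CCs and 1 was down-regulated (Tgfbr3, a coreceptor of inhibin, -5.09). The activin antagonist Fst had 97.2 ± 74.1 RPKM in CCs and 11.6 ± 12.3 RPKM in MEFs (adjusted p = 0.091, limma), while Smad2 and Smad4 differed by 0.62 and -1.09 on the log2 scale and did not pass. Of the genes of cumulus expansion and ovulation, none of 13 was up-regulated in CCs and 1 was down-regulated (Ereg, -2.96). The prostaglandin synthase Ptgs2 (36.4 ± 28.6 and 29.8 ± 15.4 RPKM) and the matrix protein Vcan (39.0 ± 19.5 and 45.7 ± 16.9 RPKM) did not pass, with log2 differences of 0.13 and -0.31. Grem1 had 0.0762 to 168 RPKM in the CC libraries. All 16 fibroblast markers were down-regulated in CCs, where their sum was 6.94 to 18.7 RPKM against 9467 to 12647 RPKM in MEFs. Theca, leukocyte, endothelium and oocyte markers gave no call among 1, 3, 2 and 3 genes tested. The oocyte markers summed to 17.2 to 58.8 RPKM in the CC libraries and to 2664 to 5620 RPKM in the in vivo 1-cell embryos.

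**Figure D2:**
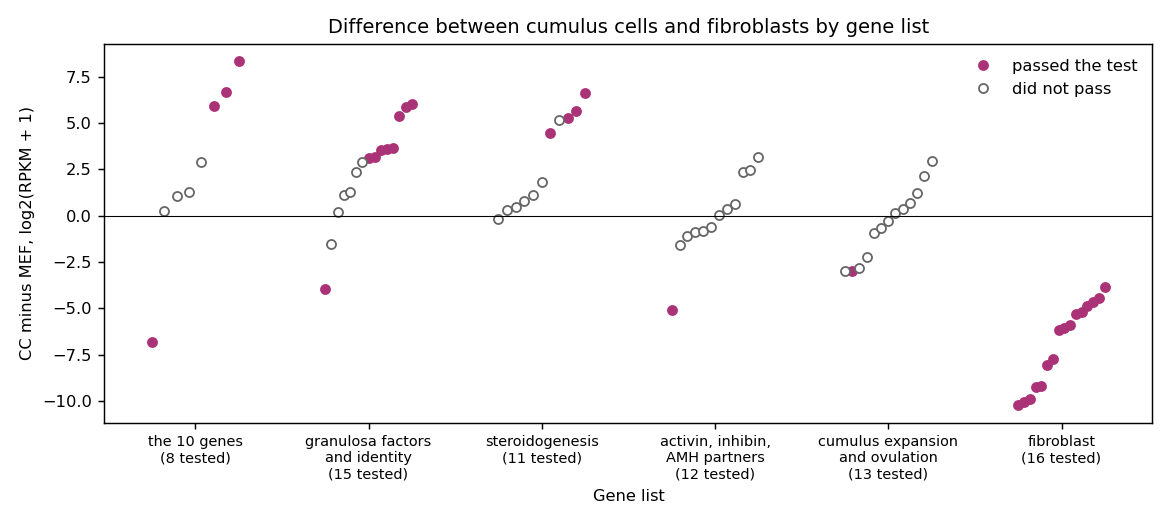
Log2 difference of CCs and MEFs for the genes tested in each list, ordered within a list, with filled circles for genes that passed the test. The granulosa and steroidogenesis lists lie mostly above 0, the list of cumulus expansion lies on both sides, and the fibroblast list lies at or below -3.87.

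The next comparison asked how high these transcripts were once the cumulus nucleus was in the oocyte. In NTC embryos, Cyp11a1, Star, Inha, Inhba and Tnfaip6 were down-regulated against CCs at all 6 stages, from the 1-cell embryo on, which is 30 calls in 49 tests of members. All stages were compared with the same CC libraries, so these calls are not independent. No member was called higher at any stage. All genes were called often in these comparisons too, 50.0%, 37.1%, 24.4%, 21.8%, 29.6% and 24.2% of the genes tested from the 1-cell stage to the blastula. The share called lower was 20.8%, 18.5%, 14.1%, 13.8%, 18% and 14.3% in the same order. The median log2 difference of the members tested was -5.71 at the 1-cell stage and -6.05 in blastulas, against 0.16 and -0.32 for all genes. Members at or near 0 in embryos passed the filter of 0.5 RPKM through the CC libraries alone, which fixed the sign of their difference. Other genes could also pass through the embryo side, so neither the medians nor the shares of calls compare like with like. An embryo library holds the RNA of an oocyte and its descendants, whereas a CC library holds donor cells, so that dilution of a donor transcript and its loss cannot be told apart.

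In the 1-cell NTC embryos, Cyp11a1 had 0, 0.235 and 0 RPKM, a mean 5845 times lower than in CCs. The log2 difference was -8.50 (SE 0.59, adjusted p = 0.00012, limma). Star had 0, 1.15 and 1.73 RPKM, 95.5 times lower than in CCs (log2 difference -5.16, SE 0.95, adjusted p = 0.0056, limma). It was thus the member with the highest level relative to CCs among those called, 1.05% of the CC mean, and Inhba followed with 0.677%. Inhba had 0, 0.254 and 2.95 RPKM in these embryos. The means of Star and Inhba were 0.961 and 1.07 RPKM here, and 0.0580 and 1.08 RPKM in 1-cell NTM embryos. Whether such reads came from the donor cell was not tested. Tnfaip6 had 1 read in 1 of the 3 libraries. NTC 1-cell replicate 1 had no read of any member, and replicates 2 and 3 had reads of 6 and 5 members.

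Inha had no read in any of the 54 embryo libraries. Against 273 ± 71.5 RPKM in CCs (SD, n = 3), it was at least 711-fold lower at the NTC 2-cell stage and at least 2107-fold lower at the NTC morula stage, the ends of the range over the 6 stages, with 3 reads in the shallowest library of a group as the floor. Of the 529 genes with a mean of at least 100 RPKM in CCs, 5 (0.945%) were at 0 in all embryo libraries. The other 4, named after their values were seen, were Sfrp4 (674 RPKM in CCs), Gm14052 (140 RPKM), Nts (108 RPKM) and Gm12648 (106 RPKM). This rule follows the pattern of Inha itself, so the share is a description and no test.

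Ptx3, Fshr and Amh were not called at any stage against CCs. Ptx3 had a log2 difference between -2.38 and -2.12 with adjusted p from 0.065 to 0.13 (limma), and without CC replicate 2, the library with 0.436 RPKM, it was called at all 6 stages. Ptx3 was also called at 4 stages with a pseudocount of 0.1. Fshr ranged from -1.30 to -0.44 and Amh from -1.06 to -0.99 (adjusted p of at least 0.37 and 0.25, limma). In 1 fit over the 20 groups, Ptx3 was called at 6 stages, Amh at 5 and Fshr at 4. Star was the least secure of the called genes, since its call at the 8-cell stage was lost without NTC 8-cell replicate 2 or 3, and that in blastulas without NTC blastula replicate 2 or 3. Both were also lost without the filter on low values. Foxl2 was never tested, and Has2 was tested at the 2-cell stage, where it had 0.160, 2.39 and 0.802 RPKM in NTC embryos and 0 in CCs (log2 difference 0.94, SE 0.56, adjusted p = 0.23, limma).

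In NTM embryos, the genes that MEFs carried were lower as well. Ptx3 and Tnfaip6 were down-regulated against MEFs at all 6 stages and Inhba at 5, which is 17 calls in 24 tests of 4 members. All stages were compared with the same MEF libraries, so these calls are not independent. Members at or near 0 in embryos passed the filter on low values through the MEF libraries alone, which fixed the sign of their difference. The share of all genes called was 55.2%, 39.5%, 28.5%, 42.3%, 41.9% and 30.8% from the 1-cell stage to the blastula, and the share called lower was 29.9%, 25.2%, 20%, 30.2%, 31.9% and 19.8%. Ptx3 had 4, 0 and 1 reads in the 1-cell NTM embryos, a mean 14663 times lower than in MEFs (log2 difference -9.11, SE 0.39, adjusted p = 7e-06, limma), and no read at later NTM stages. In blastulas this is at least 10032-fold lower than in MEFs. Tnfaip6 differed by -6.65 to -6.35 on the log2 scale. The Inhba calls rested on MEF replicates 2 and 3, since all 5 were lost when either was left out, which left 12 calls, and each was lost without any single NTM library of its stage. All 5 were also lost without the filter on low values. Inha did not pass in NTM embryos (-1.36, adjusted p of at least 0.10, limma), with a MEF mean of 2.25 RPKM. It was called at 5 stages with a pseudocount of 0.1, and at all 6 in 1 fit over the 20 groups.

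**Figure D3:**
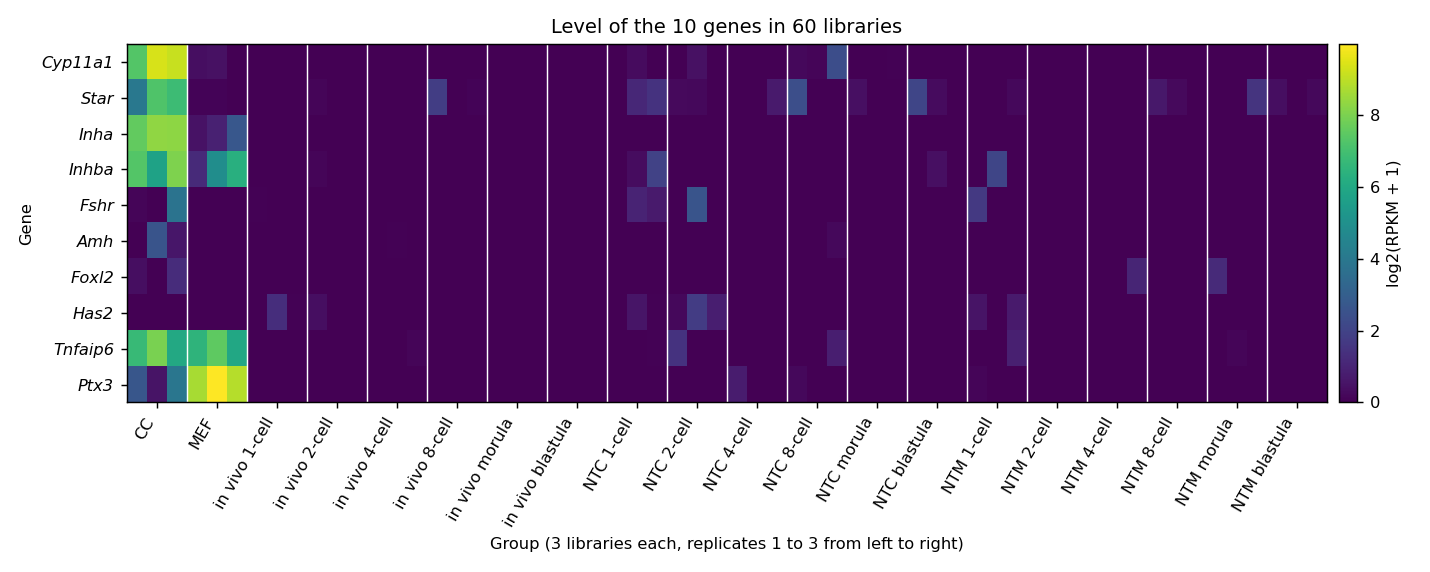
Level of the 10 genes in each of the 60 libraries as log2(RPKM + 1), in groups of 3 libraries divided by white lines. The donor cells at the left hold nearly all of the signal, and the embryo libraries hold single faint values, none above 5.03 RPKM.

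Reads of the members in embryos were few and scattered. Of the 540 values (10 genes in 54 embryo libraries), 61 were above 0 and 16 above 1 RPKM, and the highest was 5.03 RPKM (Fshr in NTC 2-cell replicate 2). NTC embryos had 34 of 180 values above 0 (18.9%), NTM embryos 17 (9.44%) and in vivo embryos 10 (5.56%). Over all other genes these shares were 46.1%, 41.9% and 40.5%, and the median depth was 13117781, 16954196 and 14778447 reads. No member had a read in 4 NTC, 6 NTM and 10 in vivo libraries. By stage, the share of member values above 0 was 24.4% in 1-cell embryos, 13.3% in 2-cell embryos, 5.56% in 4-cell embryos, 12.2% in 8-cell embryos, 6.67% in morulas and 5.56% in blastulas. For all other genes it was 46.3%, 45.1%, 43.2%, 40.8%, 42.0% and 39.8% in the same order. In 8-cell embryos, 7 of 30 member values were above 0 in NTC embryos, and 2 of 30 each in NTM and in vivo embryos.

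**Figure D4:**
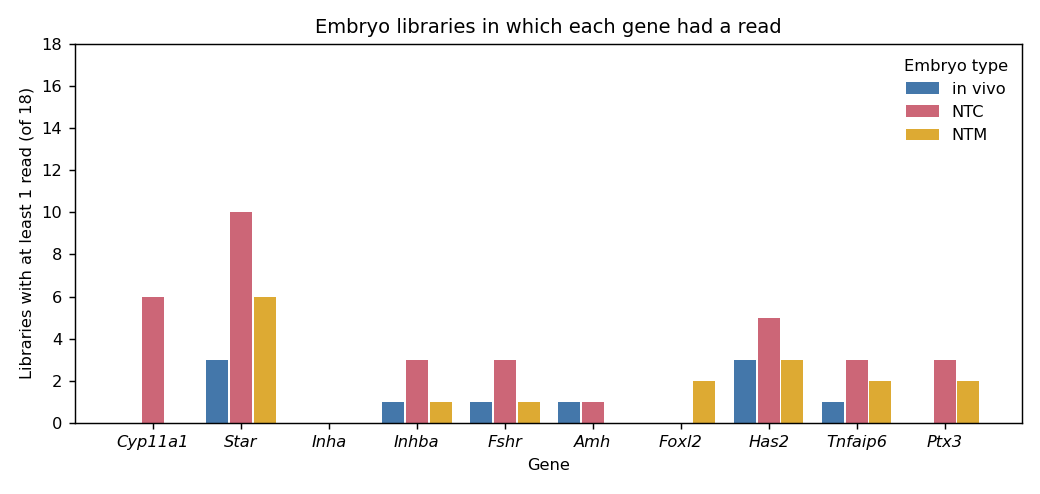
Number of embryo libraries, of 18 per embryo type, in which a gene had at least 1 read. Cyp11a1 has a bar in NTC embryos alone, Star and Has2 have bars in all 3 types, and Inha has none.

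Cyp11a1 had reads in 6 of 18 NTC libraries and in none of 18 NTM and 18 in vivo libraries. The 6 libraries were 1-cell replicate 2 (18 reads), 2-cell replicate 2 (20 reads), 8-cell replicates 1, 2 and 3 (12, 7 and 417 reads) and morula replicate 3 (5 reads). In 5 of all 27238 genes (0.0184%) at least 6 NTC libraries and no NTM or in vivo library had a read. The others, named after their values were seen, were Usp35, Wipf3, Gm35025 and Smim3, and of these Smim3 (56.5 RPKM) and Usp35 (5.03 RPKM) were expressed in CCs. The cut of 6 libraries equals the count of Cyp11a1 itself, so this share describes the gene and tests nothing. Genes with reads in NTM or in vivo libraries alone were not counted. NTC 8-cell replicate 3 stood apart with 4.06 RPKM of Cyp11a1, 0.885% of the CC mean. Amh (6 reads) and Tnfaip6 (29 reads) were found in the same library, and Star, Inha and Inhba were not. In the CC libraries there were 2.68 to 6.76 reads of Cyp11a1 for 1 read of Inha, against 417 and 0 in this embryo. The summed level of the granulosa list in this library was 104 RPKM, the lowest of the 3 NTC 8-cell libraries (200 and 135 RPKM in the others). In vivo 8-cell embryos, without a cumulus nucleus, had 160 to 282 RPKM of this list, so the sum cannot tell cumulus RNA from that of the embryo. NTC 8-cell replicate 3 was the highest of the 3 for the summed fibroblast markers (21.2 RPKM, against 3.34 and 4.01). It was also the highest for those of oviduct epithelium (140 RPKM, against 53.0 and 14.9). In vivo 8-cell embryos had 0.147 to 1.73 and 12.8 to 20.1 RPKM of these markers. Embryos of other stages reached such sums, with 12.9 to 23.5 RPKM of the fibroblast markers in in vivo 4-cell embryos. In vivo blastulas had 236 to 405 RPKM of the oviduct markers. The part of such cells in the Cyp11a1 reads was not tested. Cyp11a1 overlaps Gm17322 on the same strand, which had 0.911 RPKM in CCs and up to 1.70 RPKM in 13 embryo libraries. Both genes had reads in 1 embryo library, NTC 1-cell replicate 2 (0.235 RPKM of Cyp11a1 and 0.955 RPKM of Gm17322), and Gm17322 was at 0 in the other 5 libraries with reads of Cyp11a1. Reads that fall on both cannot be assigned with certainty.

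Between embryo types, no test of a member passed. NTC and in vivo embryos were compared in 6 tests of 5 members with no call (limma), where 1.16%, 0.152%, 1.46% and 9.46% of all genes were called at the 1-cell, 2-cell, 8-cell and blastula stages. At the other stages no member was high enough to be tested. Cyp11a1 at the 8-cell stage differed by 0.90 on the log2 scale (adjusted p = 0.44, limma), with 0.171, 0.0869 and 4.06 RPKM in NTC embryos and 0 in the 3 in vivo embryos. The 2 tests of NTM against in vivo embryos gave no call either (1.28% of all genes called at the 1-cell stage and 2.02% at the 8-cell stage). Nor did the 8 tests of NTM against NTC embryos (19.8% at the 1-cell stage, 0.0507% at the 8-cell stage and 0% at the 2-cell and blastula stages). The 12 tests between successive stages gave no call. In NTC embryos 13.5%, 36.6%, 0.0564%, 0% and 7.16% of all genes were called over the 5 steps, and in NTM embryos 9.4% over the first step. No unadjusted p of a member was under 0.05 in these 4 sets of comparisons, and most members were too low to be tested at most stages.

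Star was the member found most often, in 10 NTC, 6 NTM and 3 in vivo libraries. Its highest values were 4.29 RPKM in NTC 8-cell replicate 1, 3.29 RPKM in NTC blastula replicate 1, 2.53 RPKM in in vivo 8-cell replicate 1 and 1.84 RPKM in NTM morula replicate 3. Each was the only library above 1 RPKM in its group, and in the 8-cell stage the in vivo and NTC groups overlapped. All 6 NTM libraries with a read of Star, at 0.173 to 1.84 RPKM, were above the highest MEF library (0.0774 RPKM).

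Has2 showed another pattern, with reads before the 4-cell stage and none afterwards. It was found in 11 of 18 libraries of 1-cell and 2-cell embryos, 3 of them in vivo, 5 NTC and 3 NTM, and in 0 of 36 libraries of later embryos. The highest values were 2.39 RPKM in NTC 2-cell replicate 2 and 1.46 RPKM in in vivo 1-cell replicate 2. Of all genes, 363 (1.33%) were found in at least 10 of the 18 early libraries and in no later one, a rule that follows the pattern of Has2 itself. The CC libraries had no read of Has2, so the 5 NTC libraries held reads of it that their donor cell did not show at this depth. Has2 overlaps Has2os on the opposite strand, which had no read in CCs or embryos. Fshr was found in 5 of 18 libraries of the 1-cell and 2-cell stages and in 0 of 36 later ones. The in vivo library among them held 1 read, and the share of all genes with such a pattern was not counted. The highest Fshr values were 5.03 RPKM (125 reads) in NTC 2-cell replicate 2 and 2.17 RPKM in NTM 1-cell replicate 1. The Fshr value of NTC 2-cell replicate 2 was 117% of the CC mean, which was carried by 1 CC library.

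**Figure D5:**
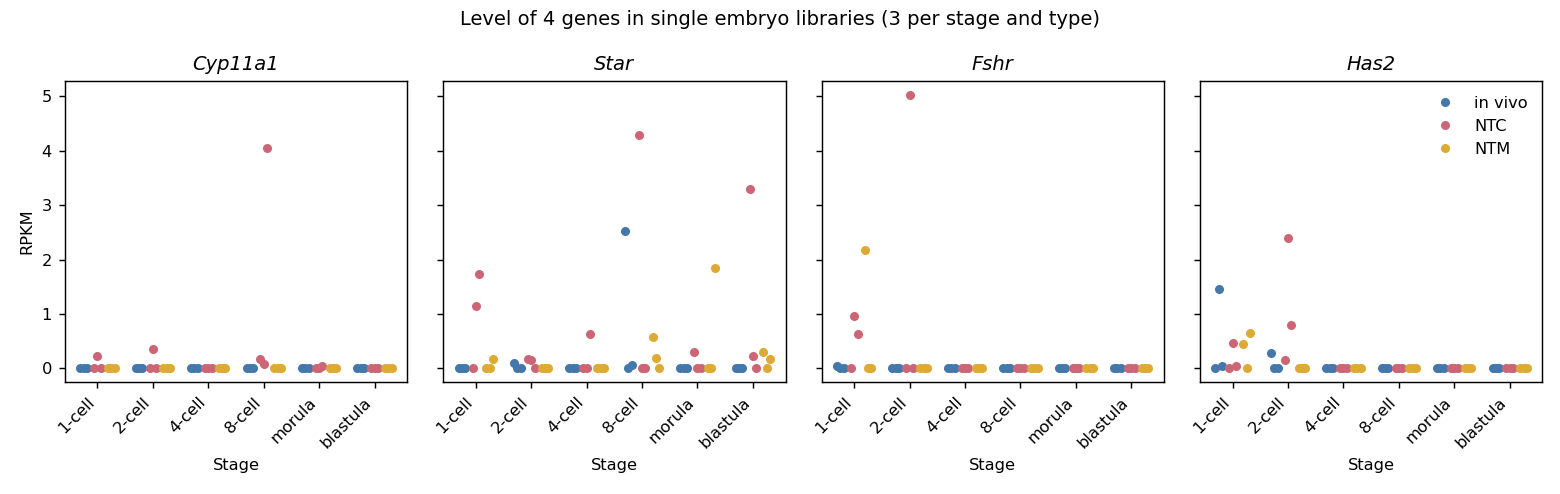
RPKM of Cyp11a1, Star, Fshr and Has2 in every embryo library by stage, with 3 points for each type and stage. Most points lie at 0, Fshr and Has2 have points above 0 at the 1-cell and 2-cell stages alone, and Cyp11a1 rises above 0 only in NTC embryos.

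The remaining members were rare in embryos. Inhba was found in 5 libraries, 2.95 RPKM in NTC 1-cell replicate 3 and 3.25 RPKM in NTM 1-cell replicate 2 at the top. Tnfaip6 was found in 6 libraries with at most 1.73 RPKM, and Ptx3 in 5 with at most 0.703 RPKM. Foxl2 was found in NTM 4-cell replicate 3 (24 reads) and NTM morula replicate 1 (20 reads), neither of which received a cumulus nucleus. Amh was found in 2 libraries with at most 6 reads. The libraries were not stranded, and Inhba, Foxl2 and Ptx3 overlap genes on the opposite strand. Foxl2os had 1.59 RPKM in CCs, above the 0.553 RPKM of Foxl2. Veph1, opposite to Ptx3, had 1.70 RPKM in MEFs and up to 5.42 RPKM in embryos, and where the genes overlap their reads cannot be told apart.

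Related genes were compared between CCs and the 1-cell NTC embryos as well, where 20.8% of all genes were called lower and 29.3% higher. Of the steroidogenesis list, 4 of 12 tested were down-regulated against CCs and 2 were up-regulated. The granulosa list had 7 of 15 down-regulated and 2 up-regulated, and its summed level was 197 to 210 RPKM in 1-cell NTC embryos against 1237 to 1613 RPKM in CCs. Cumulus expansion had 4 of 13 down-regulated and 2 up-regulated, and the activin, inhibin and AMH partners 1 of 12 down-regulated and 4 up-regulated. The medians of these lists were -3.34, -2.47, -1.25 and 1.60 on the log2 scale, against -5.71 for the members and 0.16 for all genes tested. For genes at or near 0 in embryos the filter on low values fixed the sign, as stated above for the members. Unlike most members, several genes of these lists were common in embryos. Fdx1 was found in all 54 embryo libraries (mean 98.1 RPKM), Gja1 in 44 (mean 116 RPKM, highest 1018 RPKM), Smad4 in 54 (mean 26.2 RPKM), and Hmmr, the hyaluronan receptor, in 53 (mean 7.36 RPKM).

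Over the 20 group means of log2(RPKM + 1), the genes most like the mean of the 10 members among 13535 genes were Magee1, Gm42640, Pde5a, Spsb1 and Pgghg, with Pearson r between 0.994 and 0.995. Such values describe mainly the contrast of 2 donor groups with 18 embryo groups near 0, and the groups are not independent. The genes most like Cyp11a1 were Adgrv1 and Nts, those most like Star were Wnt4 and Car12, and those most like Inha were Gm37524 and Gm14052 (r from 0.982 to 1.00). For Ptx3 they were Loxl3 and C1ra (r of 0.999 for both), and for Tnfaip6 Sox4 and Smim3 (r of 0.998 for both). Inhba was most like Fam234b and Gm42640, Fshr most like Hsd3b1 and Tmem71, and Amh most like Gm12648 and Npy4r (r from 0.936 to 0.997). Foxl2 had looser matches, Tbc1d4 and Rmdn2 (r of 0.750 and 0.749).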

How the data were processed

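The authors deposited 1 table of RPKM values (reads relative to exon length and library size) for 27238 genes in 60 libraries, made with TopHat, Bowtie2 and HTSeq by the study's methods. The submitters' processing notes name Bowtie 0.12.2 and mm8. Libraries were tailed, amplified by PCR without molecular identifiers and not stranded. Embryos were collected in independent experiments, and donor cells as biological replicates.

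Values were used as deposited. Reads were recovered from the steps between values of a library (19708 of 24561 genes whole within 0.05 reads at GENCODE M21 exon lengths). The recovery and the fits were tested on simulated data. For Cyp11a1, Inha, Has2, Tnfaip6 and Ptx3 all low values were whole at the annotated length. For Star, Inhba, Fshr, Amh and Foxl2 the length was read from the values themselves, as the smallest that made all their low values whole. That their values were whole is therefore no check of the recovery. Groups were compared pairwise (46 comparisons) with limma 3.58.1 (R 4.3.3, eBayes with trend) on log2(RPKM + 1), for genes whose mean was 0.5 RPKM or more, and called at an adjusted p under 0.05 and a log2 difference of at least 1. Tables used Python 3.11.15.

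The 10 members, the gene lists and the tests were chosen with earlier results of these data known. All members are named. Of the other 10 lists (116 of 119 genes in the table) the text draws on the 3 genes highest in CCs and the 1 highest in embryos, and on genes that decide a small count. The likeness of patterns used Pearson r over group means. The genes most like Has2 are not reported here. Promoter windows matched 7 of the 10 members. Alternatives were a pseudocount of 0.1, no filter, median-ratio scaling, 1 fit over all 20 groups, a replicate block, other detection limits and leaving out single libraries. The limit of more than 3 reads and the test between both donor steps were chosen after seeing the data.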

Additional observations from a re-analysis of the deposited data

Results flagged for a closer look

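The step from the donor cell to the 1-cell embryo was compared between NTC and NTM embryos in 1 fit of limma over both donors and both 1-cell groups, a test chosen after seeing the data. It differed for 4 of the 7 members tested, where 1753 of 13682 genes differed. Cyp11a1 fell more in NTC embryos, by a log2 difference of -8.24 between the steps (SE 0.68, adjusted p = 1.6e-05, limma), as did Inha (-6.70, adjusted p = 9.6e-05, limma) and Star (-5.17, adjusted p = 0.0066, limma). Ptx3 fell more in NTM embryos (6.75, adjusted p = 0.00093, limma). These 4 members also differed between CCs and MEFs, and both 1-cell groups were near 0, so that the differences between the steps repeat those between the donors. Tnfaip6 (-0.53, adjusted p = 0.69), Inhba (-2.84, adjusted p = 0.30) and Fshr (-1.29, adjusted p = 0.53) did not pass (limma).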

How the results depend on the processing

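The 4 calls of members between CCs and MEFs were kept with a pseudocount of 0.1 and with median-ratio scaling, and 4 calls were made without any single library. Without the filter on low values 2 calls remained (Star and Ptx3 were lost), and 1 fit over all 20 groups, which shares the spread of the embryo groups, gave 7 (Inhba, Fshr and Amh were added). Tnfaip6 changed its sign without CC replicate 2 (-0.28) and without MEF replicate 3 (-0.08), ranged from -0.28 to 0.69 without single libraries and was not called. Against the donor, NTC embryos gave 28 to 45 calls and NTM embryos 12 to 24 over the alternatives other than left-out libraries, and 29 to 36 and 12 to 18 without single libraries. No alternative called a member between embryo types or successive stages. Of the member values in embryos, 61 were above 0, 47 above 0.1 RPKM, 16 above 1 RPKM and 49 above 3 reads, and 39 to 42 without 1 replicate of every group. The replicate numbers did not pair the libraries. In 0 of 46 comparisons were all 3 correlations of same-numbered libraries over 0.1, and in 2 every library correlated best with its own number. A replicate block left 4 calls between CCs and MEFs and 30 in NTC embryos and gave 18 in NTM embryos. With 3 libraries per group and reads amplified without molecular identifiers, transcripts lost before amplification remain unmeasured.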
